A study of Mus musculus with 40 samples.

Results

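The genes described here encode NF-kappaB subunits and the inhibitors that NF-kappaB itself induces. The members were chosen by gene symbol: the subunits Nfkb1, Nfkb2, Rel and Relb, the IkappaB family members Nfkbia, Nfkbie, Nfkbiz and Bcl3, and the ubiquitin regulators Tnfaip3 and Birc3. All 10 symbols matched 1 Ensembl gene each, out of 45706 genes measured. RNA sequencing had been done on sorted cells from mice with colon tumors and from healthy mice, in 40 libraries that fall into 10 groups of 4. Tumor-bearing mice carried the transgene labelled Cdx2CreERT2 - Apc fl/fl on a C57Bl6/Sv129 background and received a single intraperitoneal dose of 25 mg/kg Tamoxifen at 8 to 10 weeks of age. The number in the strain label runs upward from library to library, and Sv129 was taken for all. The study's methods give a wider age range than the labels. From these mice came tumor epithelial cells, tumor stromal cells, tumor neutrophils, tumor monocytes, blood neutrophils and blood monocytes. Healthy mice were C57Bl6 with neither transgene nor agent listed, and gave colon epithelial cells, colon stromal cells, blood neutrophils and blood monocytes. Strain, transgene, Tamoxifen and tumor therefore differ together between healthy and tumor-bearing mice and cannot be told apart, whereas tumor and blood leukocytes are both from tumor-bearing mice. Cdx2 drives the recombinase in the intestinal epithelium, so the Apc alleles of leukocytes and stromal cells are outside the cells this promoter is known for.

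NF-kappaB is a family of dimeric transcription factors that are held in the cytoplasm by IkappaB proteins until receptors for cytokines or microbial products activate the IkappaB kinase, which marks the inhibitor for destruction. Among the genes switched on by the freed dimers are those of its own inhibitors and of some of its own subunits, so that the response ends itself. In leukocytes this pathway is best known for driving cytokine and chemokine genes and survival, and in the colon it links inflammation with tumor growth.

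On mm10, Nfkb1 (ENSMUSG00000028163) lies at chr3:135584655-135691547 on the minus strand, and encodes p105, the precursor of the p50 subunit. Nfkb2 (ENSMUSG00000025225, chr19:46304320-46312385, plus strand) encodes p100, the precursor of p52. Rel (ENSMUSG00000020275, chr11:23736847-23770970, minus strand) and Relb (ENSMUSG00000002983, chr7:19606217-19629438, minus strand) encode subunits that can activate transcription themselves. Nfkbia (ENSMUSG00000021025, chr12:55489410-55492647, minus strand) encodes IkappaB-alpha, the inhibitor resynthesised soon after activation, and Nfkbie (ENSMUSG00000023947, chr17:45555703-45563169, plus strand) encodes IkappaB-epsilon. Nfkbiz (ENSMUSG00000035356, chr16:55811375-55838899, minus strand) and Bcl3 (ENSMUSG00000053175, chr7:19808462-19822770, minus strand) encode IkappaB family proteins that act in the nucleus and can raise or lower the output of p50 and p52 dimers. Tnfaip3 (ENSMUSG00000019850, chr10:19000910-19015657, minus strand) encodes A20, a ubiquitin-editing enzyme that shuts off signalling upstream of the kinase. Birc3 (ENSMUSG00000032000, chr9:7848699-7873186, minus strand) encodes cIAP2, a ubiquitin ligase at the TNF receptors. All 10 are protein coding. Nfkb2 and Bcl3 overlap annotated genes on the opposite strand (Psd and AC114539.1, and Gm16175 and Gm16174), Nfkb1 overlaps Gm43430 on its own strand, and the library kit did not mark strand, so reads of these pairs cannot be told apart.

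Since several of these inhibitors are known targets of NF-kappaB, their promoters are shown first. Start-site windows from RefSeq (GRCm38.p6, 250 bases before to 50 after the start) were at hand for 7 of the 10 members, Nfkb1, Relb and Nfkbiz being the others. They were searched on both strands for the kappaB consensus. A match was present in 6 of the 7 members, all but Birc3, against 9.55% of 27025 genes with a window, or 9.46% of windows within the GC range of the member windows. The last 130 bases before the start are printed for 4 members on the strand of the gene, with the matches in capitals. They lie at chr11:23770970-23771099 for Rel, chr12:55492648-55492777 for Nfkbia, chr17:45555570-45555699 for Nfkbie and chr10:19015411-19015540 for Tnfaip3, on the plus strand for Nfkbie and the minus strand for the others. RefSeq starts can differ from the ends of the gene spans given above. The Tnfaip3 stretch lies inside the span of its gene, as do the bases before the first Nfkb2 start.
Rel: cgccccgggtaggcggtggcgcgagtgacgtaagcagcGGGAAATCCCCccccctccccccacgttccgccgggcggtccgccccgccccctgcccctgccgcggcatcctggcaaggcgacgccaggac
Nfkbia: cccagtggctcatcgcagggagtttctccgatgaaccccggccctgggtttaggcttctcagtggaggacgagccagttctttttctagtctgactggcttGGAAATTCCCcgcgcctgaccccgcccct
Nfkbie: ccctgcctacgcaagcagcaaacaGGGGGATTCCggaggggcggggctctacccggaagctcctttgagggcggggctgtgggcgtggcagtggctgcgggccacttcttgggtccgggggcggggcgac
Tnfaip3: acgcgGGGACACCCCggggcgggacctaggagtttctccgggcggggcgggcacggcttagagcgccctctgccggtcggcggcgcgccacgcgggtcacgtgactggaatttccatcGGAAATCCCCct
Counted from the start site, the match of Rel began at -92, that of Nfkbia at -29, that of Nfkbie at -106 and those of Tnfaip3 at -125 and -12. The table holds several windows for Nfkb2 and Tnfaip3, and the first of each is the one described. In Nfkb2 the letters GGGAATTCCCC began at -39 and GGGGCTTTCC at -11, and in Bcl3 the letters GGGAAGTCCC began at 3. The other Nfkb2 windows held matches at -236 and 11 in the second and at -225 in the third, counted from their own starts, and the second Tnfaip3 window held none. A match describes the letters of the window, not a bound site.

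Libraries held 10717873 to 38002939 counts on genes, and mitochondrial genes took 5.34% to 83.9% of them. Several libraries stood apart from their group. Tumor neutrophil replicate 1 had the highest summed level of 12 epithelial marker genes among tumor neutrophils, at 174 RPKM (reads per kilobase of exon, scaled for depth), against 43.4, 37.2 and 12.6 in replicates 2 to 4 and 0.665 to 1.58 in blood neutrophils of the same mice, and it had the lowest sum of 8 neutrophil markers (1930 RPKM, against 6040 to 12500). Tumor neutrophil replicate 2 had the highest sum of 15 genes known to rise when tissue is digested (2070 RPKM, against 791 to 1040). Healthy epithelial replicate 4 was the library with 83.9% mitochondrial counts. The 8 fibroblast markers summed to 6.93, 26.2, 21.8 and 21.5 RPKM in the tumor libraries labelled stromal, where 6 of the 8 had a mean of at least 1. In those from healthy colon they summed to 497 to 2670. In the tumor stromal libraries the epithelial markers summed to 235, 135, 51.6 and 30.7 RPKM (10 of 12 at a mean of at least 1) and the endothelial markers to 4.61, 3.89, 116 and 126. These 4 libraries were called stromal by their sort only (EpCAM- CD45-), since their fibroblast sums were all far below those of healthy stroma. Replicates 1 and 2 had the higher epithelial and the lower endothelial sums, while the fibroblast sum was highest in replicate 2. Nothing in the labels says that the 4 libraries of a group came from separate animals, and 4 libraries pooled 2 animals by their titles, so p-values measure the spread between libraries, which may be in part technical.

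Across the 10 groups, tumor neutrophils and tumor monocytes held the highest mean RPKM of every member. Tumor neutrophils were highest for Nfkb2, Relb, Nfkbia, Nfkbiz, Bcl3, Tnfaip3 and Birc3, and tumor monocytes for Nfkb1, Rel and Nfkbie. Healthy epithelial cells were lowest for 8 members, and blood neutrophils of tumor-bearing mice were lowest for Relb and Tnfaip3. The mean of the highest group exceeded that of the lowest 62.6-fold for Nfkbie, 61-fold for Tnfaip3, 37.1-fold for Rel and 30.5-fold for Nfkbiz, and 11.9-fold for Bcl3, the narrowest span. In the order of group means, the 4 libraries of the highest group lay above all of the next group for Nfkb1, Nfkb2, Rel, Tnfaip3 and Birc3. In each case the 2 groups were tumor neutrophils and tumor monocytes. Between these, RPKM ranges did not overlap for 6 members, Nfkbiz included, and for 20.6% of all genes. For the other 5 members the top 2 groups overlapped, and most neighbours further down the order overlapped as well. The order rests on RPKM, which is not adjusted for the share of mitochondrial counts as TMM factors are. On counts normalized with TMM between tumor neutrophils and tumor monocytes, 9 of 10 members had a difference towards neutrophils, Nfkbie (0.54) and Rel (0.05, but below 0 with limma-voom and several other settings) among them, and the libraries of Nfkb1 and Rel overlapped.

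Cell types differed in which member dominated. Nfkbiz had the highest RPKM of the 10 in every neutrophil, epithelial and stromal group, and made up 57.4%, 60.6% and 36.6% of the summed member RPKM in healthy blood, tumor-bearing blood and tumor neutrophils. In monocytes the first place went to Rel, with 27.9%, 22.4% and 25.5% in the same order. The summed RPKM of the 6 members grouped here as inhibitors was 4.32 to 9.01 times that of the 4 subunits in the 12 neutrophil libraries. In the 12 monocyte libraries it was 0.965 to 1.98 times, without overlap. Nfkbiz was the largest part of the neutrophil sums. Since Nfkbiz and Bcl3 can raise or lower output and Birc3 is a ubiquitin ligase at the TNF receptors, the ratio is no measure of inhibition. These sums compare genes per length, and the length used for RPKM was inferred relative to Rel. It exceeded the longest transcript most for Nfkb1 (12071 against 4149 bases) and Birc3 (5013 against 2909), which lowers their RPKM. It was also longer for Relb, Nfkbiz, Bcl3 and Tnfaip3, and it was shorter for Nfkb2 and Nfkbie, which raises theirs.

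**Figure D1:**
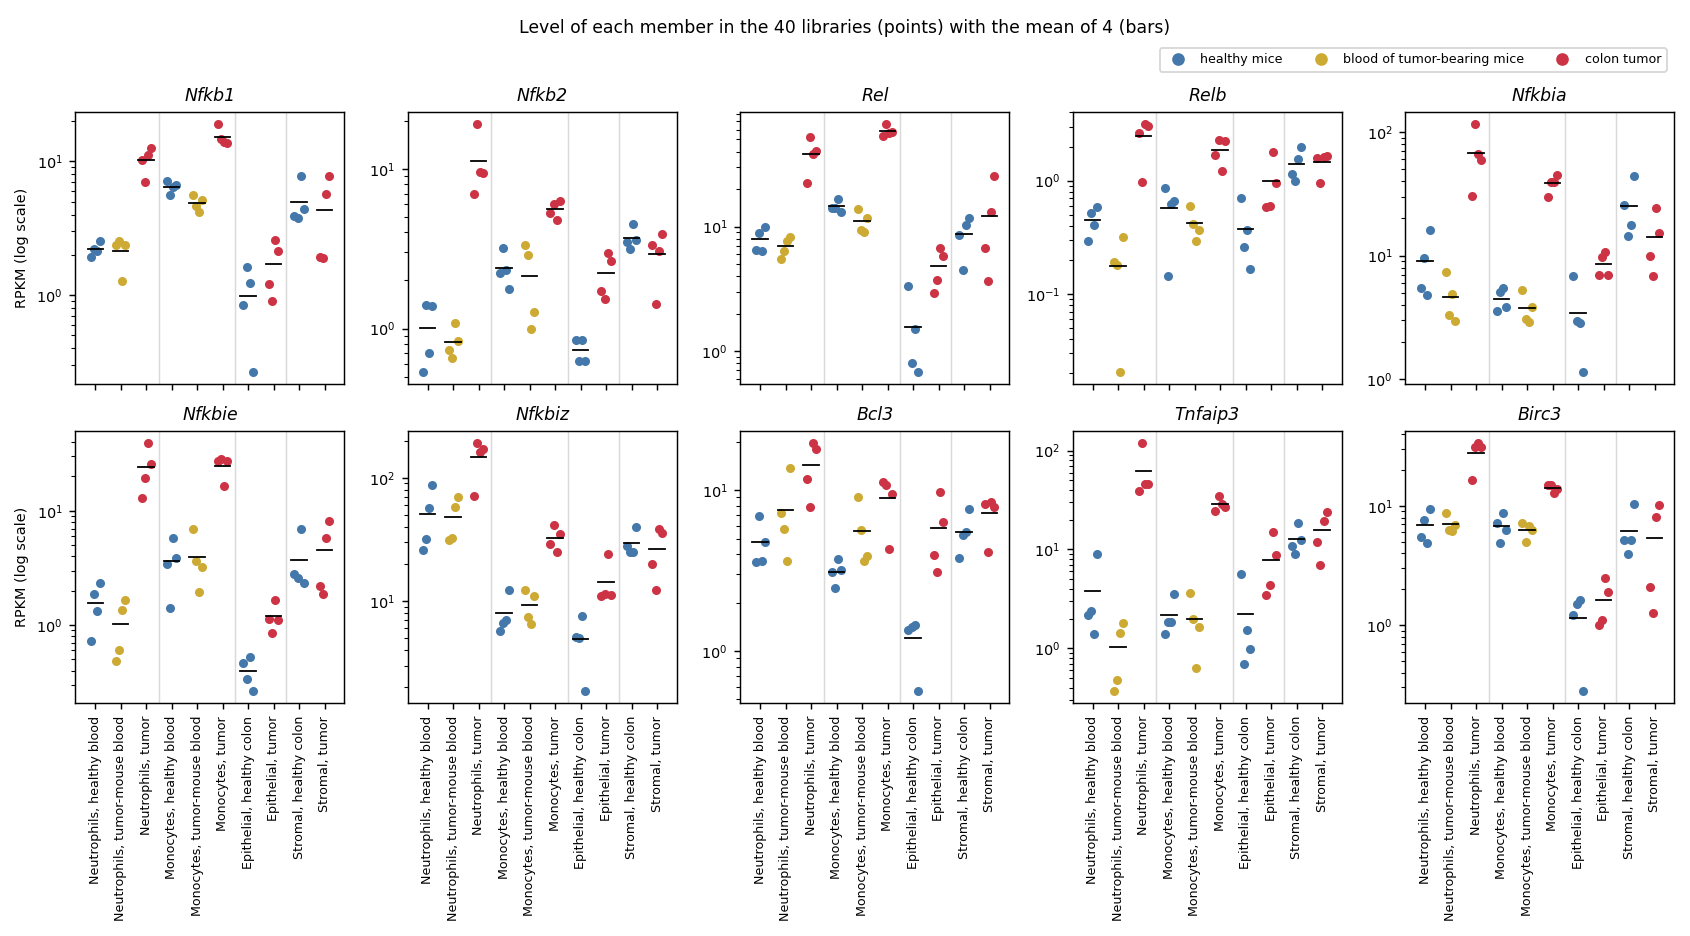
RPKM of the 10 members (log scale) in each of the 40 libraries by group. Each point is 1 library and each bar the group mean. For every member the highest mean is that of tumor neutrophils or tumor monocytes, and the libraries of healthy epithelium lie at the bottom for most.

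The first comparison asked how neutrophils from tumors differed from those in the blood of tumor-bearing mice. All 4 subunit genes and 5 of the 6 members grouped here as inhibitors were higher in tumor neutrophils. A member was called when edgeR's quasi-likelihood test gave an adjusted p under 0.05 and the log2 fold change exceeded 1.5 in size. By this rule 9 of 10 members were called, all higher, against 16.3% of all 13674 genes tested (11.9% called higher). The median log2 fold change was 3.19 over the members and 0.11 over all genes. Values per library are given as RPKM in the order of replicates 1 to 4, and fold changes come from the fit on counts. RPKM ranges did not overlap for 9 members and 27.4% of all genes (13.6% higher in tumor neutrophils). Normalized CPM (counts adjusted for library size and TMM factor) did not overlap for 8 members and 28.3% of all genes (14% higher).

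Among the subunits, Nfkb2 and Relb had the largest fold changes. Nfkb2 was 0.735, 0.65, 1.09 and 0.834 RPKM in blood neutrophils and 6.93, 19, 9.55 and 9.39 in tumor neutrophils. The groups were apart, with tumor replicate 2 highest, and the log2 fold change was 3.99 ± 0.57 (SE, edgeR adjusted p = 0.00137), or 3.20 without that library. Relb, the partner of p52 in the non-canonical branch of the pathway, measured 0.192, 0.181, 0.0207 and 0.32 in blood and 2.66, 0.975, 3.14 and 3.04 in tumors. Again there was no overlap, this time with replicate 2 the lowest of the tumor libraries, for a log2 fold change of 3.75 ± 0.71 (edgeR adjusted p = 0.00516), or 3.88 without replicate 2, so that the order of the 2 genes rested on that library. Rel went from 5.44, 6.36, 7.66 and 8.27 to 22.4, 52, 37.9 and 40.6 RPKM, a log2 fold change of 2.63 ± 0.48 (edgeR adjusted p = 0.00415). Nfkb1 went from 2.37, 2.54, 1.28 and 2.36 to 10.2, 6.95, 11.2 and 12.6 RPKM, a log2 fold change of 2.31 ± 0.32 (edgeR adjusted p = 0.00114). Neither gene had overlapping groups.

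Tnfaip3, the gene of A20, showed the widest gap of the 10. It measured 0.372, 0.483, 1.43 and 1.8 RPKM in blood neutrophils and 39.3, 118, 45.9 and 46.2 in tumor neutrophils. The lowest tumor library was above the highest blood library by far, and replicate 2 stood above the other 3 tumor libraries. The fitted log2 fold change was 6.17 ± 0.86, or 72-fold (edgeR adjusted p = 0.00123), and 5.21 without tumor replicate 2. Nfkbie rose by 4.61 ± 0.59 on the log2 scale (edgeR adjusted p = 0.000889), from 0.485, 0.6, 1.35 and 1.66 RPKM to 12.9, 19.2, 38.9 and 25.5, with no overlap. Nfkbia rose by 4.12 ± 0.63 (edgeR adjusted p = 0.0019), from 7.42, 3.31, 4.92 and 2.93 RPKM to 30.2, 115, 66.5 and 59.4, again with no overlap. Its tumor replicates 1 and 2 were the extremes of the group, and the log2 fold change was 4.43 without replicate 1 and 3.35 without replicate 2.

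Birc3 was 8.68, 6.23, 6.22 and 6.98 RPKM in blood neutrophils and 16.6, 31, 33.5 and 31.2 in tumor neutrophils. Tumor replicate 1 was the lowest of its group yet above all blood libraries, and the log2 fold change was 2.14 ± 0.41 (edgeR adjusted p = 0.00516). Nfkbiz was already the most abundant member in blood neutrophils, at 31.3, 32.5, 58.5 and 70.4 RPKM. In tumor neutrophils it stood at 71.3, 190, 162 and 172, so that tumor replicate 1 was level with the highest blood library. Its log2 fold change of 1.78 ± 0.54 passed narrowly (edgeR adjusted p = 0.0441) and rested on single libraries, since the adjusted p was 0.0855 without tumor replicate 2, 0.00871 without tumor replicate 1, and past the threshold in 1 of 8 fits that left out 1 library. Bcl3 was the exception among the members grouped as inhibitors. It measured 7.2, 5.71, 3.63 and 13.7 RPKM in blood and 11.8, 7.85, 19.5 and 18 in tumors, the groups overlapped, and the log2 fold change of 0.93 ± 0.43 did not pass (edgeR adjusted p = 0.163).

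Monocytes were compared in the same way, tumor against blood of tumor-bearing mice, and 8 of 10 members were called, all higher, against 11.7% of 15280 genes tested (7.76% called higher). With the adjusted p alone, 9 of 10 passed, against 17.1%. The median log2 fold change was 2.23 over the members and -0.03 over all genes. Rel measured 13.9, 9.41, 9.11 and 11.7 RPKM in blood monocytes and 53.4, 66.1, 56.2 and 57.2 in tumor monocytes. The 2 groups were far apart and the tumor libraries close together, for a log2 fold change of 2.66 ± 0.19 (edgeR adjusted p = 1.11e-05). Nfkb1 went from 5.63, 4.64, 4.19 and 5.11 to 18.9, 14.7, 13.9 and 13.7 RPKM, a log2 fold change of 1.91 ± 0.2 (edgeR adjusted p = 0.00012). Relb, from 0.599, 0.418, 0.294 and 0.369 to 1.68, 2.27, 1.22 and 2.26 RPKM, changed by 2.39 ± 0.35 on the log2 scale (edgeR adjusted p = 0.00112). Nfkb2 moved least among the subunits, from 3.35, 2.87, 0.988 and 1.27 to 5.27, 6.01, 4.75 and 6.29 RPKM, with a log2 fold change of 1.66 ± 0.37 (edgeR adjusted p = 0.0125). No subunit gene had overlapping groups. Over all 10 members RPKM ranges did not overlap for 9, against 27.2% of all genes (10.6% higher in tumor monocytes). Without blood replicate 3 or blood replicate 4, 7 members were called in place of 8 (9.73% and 9.42% of all genes).

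Among the members grouped as inhibitors, Tnfaip3 and Nfkbia led in tumor monocytes. Tnfaip3 measured 3.65, 1.96, 0.635 and 1.65 RPKM in blood monocytes and 24.4, 35.1, 28.5 and 26.8 in tumor monocytes, a log2 fold change of 4.14 ± 0.44, or 17.6-fold (edgeR adjusted p = 0.000172). Nfkbia measured 5.23, 3.04, 2.88 and 3.83 in blood and 29.8, 39.5, 39 and 44.6 in tumors, a log2 fold change of 3.61 ± 0.25 (edgeR adjusted p = 1.05e-05). Both genes were several-fold higher in each tumor library than in any blood library. Nfkbie rose by 2.93 ± 0.35 on the log2 scale (edgeR adjusted p = 0.000373), from 6.92, 3.66, 1.95 and 3.2 RPKM to 27.4, 28.5, 16.6 and 27.1. Nfkbiz rose by 2.07 ± 0.24 (edgeR adjusted p = 0.00026), from 12.2, 7.45, 6.48 and 10.9 RPKM to 29, 41.5, 25.1 and 35.1. Birc3 rose by 1.43 ± 0.19 (edgeR adjusted p = 0.00055), from 7.27, 4.94, 6.75 and 6.33 RPKM to 15, 15.1, 12.9 and 14. The groups of these 3 genes did not overlap, and Birc3 fell short of the fold threshold only. Bcl3, at 9.08, 5.62, 3.63 and 3.92 RPKM in blood and 11.2, 10.7, 4.28 and 9.45 in tumors, overlapped and did not pass (log2 fold change 0.94 ± 0.35, edgeR adjusted p = 0.0979).

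**Figure D2:**
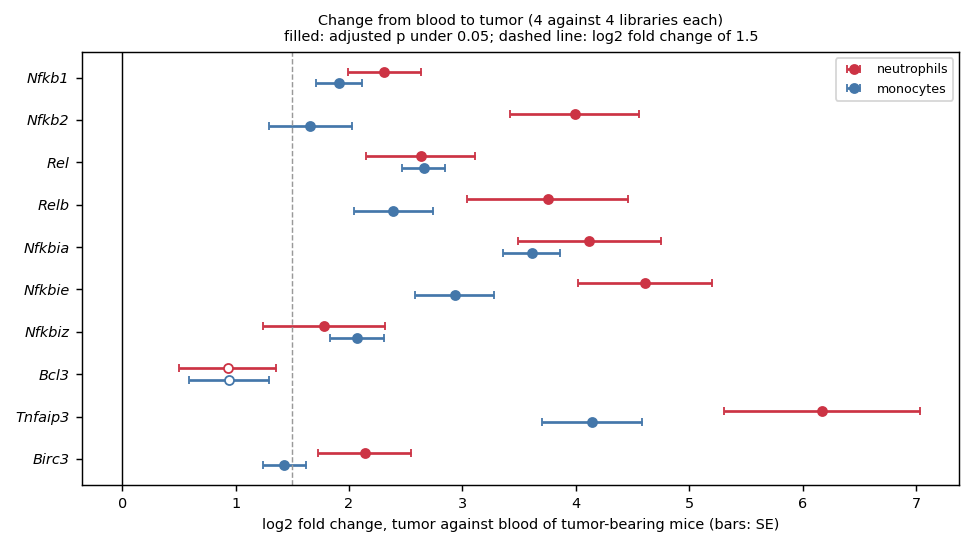
Log2 fold change of each member between tumor and blood of tumor-bearing mice, for neutrophils and for monocytes, with bars of 1 SE from the edgeR fit on 4 libraries a group. Filled points passed the adjusted p, and the dashed line marks the fold threshold of 1.5. In neutrophils 9 of 10 members were called and in monocytes 8, with Tnfaip3 the largest in both and Bcl3 the smallest in both.

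Tumor cells had been released with enzymes and blood cells had not, so digestion and location in the tumor cannot be told apart in these 2 comparisons. Among the 15 digestion-related genes, 6 were called higher in tumor neutrophils (median log2 fold change 1.18) and 7 in tumor monocytes (median 1.43). Their sum was 791 to 2070 RPKM in tumor neutrophils and 463 to 903 in blood neutrophils of tumor-bearing mice, and 915 to 1440 in undigested blood neutrophils of healthy mice. In monocytes it was 543 to 990 in tumors and 172 to 569 in blood. The epithelial markers also moved with the comparison: 10 of 12 had a mean of at least 1 RPKM in tumor neutrophils, with none of the 12 means under 0.1, and their sum was 1.88 to 36.3 in tumor monocytes. Without tumor neutrophil replicate 1, the library with the most epithelial RNA, 9 members and 13.8% of all genes were called, and without replicate 2, the library with the highest digestion-related sum, 8 members and 24.5%. The part of epithelial RNA and of digestion in the members' levels was not tested. In bulk RNA, fewer cells of a kind and less RNA per cell cannot be told apart.

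An interaction term tested whether the tumor to blood difference had the same size in both leukocyte types. No member passed, against 3.99% of 17465 genes, and 3 had an unadjusted p under 0.05. Nfkb2 came nearest, with a neutrophil difference larger by 2.21 ± 0.67 on the log2 scale (edgeR adjusted p = 0.0699), and it passed in several alternatives: adjusted p was 0.0205 with DESeq2, 0.0179 with at least 10 counts in every library, 0.0229 with all 40 libraries and 0.0391 without tumor neutrophil replicate 1. Over the alternatives that kept all libraries the difference was 1.77 to 2.38 and the adjusted p 0.0179 to 0.205. Tnfaip3 differed by 1.92 ± 0.86 (edgeR adjusted p = 0.211) and Nfkbie by 1.58 ± 0.66 (edgeR adjusted p = 0.177). Nfkbiz, Rel and Bcl3 had differences of -0.4, -0.14 and -0.12.

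Tumor neutrophils were also set directly against tumor monocytes, both digested. Titles of 3 libraries in each group shared a number, which may name an animal. The deviations of these 3 pairs correlated at -0.03 to 0.05, and the groups were tested as unpaired. On the scale of counts adjusted for library size and TMM factor (normalized CPM), Nfkbiz was 1140, 6260, 3670 and 3770 in neutrophils and 477, 612, 438 and 524 in monocytes. All neutrophil libraries were higher, for a log2 fold change of 2.86 ± 0.5 (edgeR adjusted p = 0.00737). Birc3 was 265, 1020, 754 and 682 in neutrophils and 246, 223, 224 and 208 in monocytes, where replicate 1 of the neutrophils was close to the monocytes. Its log2 fold change was 1.59 ± 0.41 (edgeR adjusted p = 0.0386). These 2 members were called, against 7.45% of 15003 genes (4.65% called higher). The count depended on the 2 neutrophil libraries that stood apart. Without replicate 1, 5 members and 11.2% of all genes were called, with Nfkb2 at 1.92, Nfkbia at 1.79 and Tnfaip3 at 2.06 (edgeR adjusted p = 0.0187, 0.0178 and 0.0223) added to Birc3 and Nfkbiz. Without replicate 2, Nfkbiz was the 1 member called, with 9.18% of all genes (log2 fold change 2.48, edgeR adjusted p = 0.011). Rel and Nfkb1 did not pass, with differences of 0.05 ± 0.44 and -0.08 ± 0.33 (edgeR adjusted p = 0.96 and 0.91).

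Other genes of the pathway were read from lists grouped by role. Of 12 other subunits and inhibitors, 6 were called higher in tumor neutrophils, among them Nfkbid, a further nuclear IkappaB protein (log2 fold change 3.48, edgeR adjusted p = 0.0117), Tnip1, a partner of A20 (3.04, edgeR adjusted p = 0.000747), and Zc3h12a, an RNase that degrades cytokine messages (2.97, edgeR adjusted p = 0.00213). In tumor monocytes 3 of 11 were called, Tnip3, a relative of Tnip1 (4.8, from a blood mean of 0.192 RPKM), Tnip1 (2.76) and Zc3h12a (2.19). Rela, the gene of the p65 subunit, was looked up after the values were seen and was called in tumor neutrophils (2.23 ± 0.45, edgeR adjusted p = 0.00662), while in tumor monocytes it passed the adjusted p only (1.5 ± 0.28, edgeR adjusted p = 0.00438).

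The kinases and adaptors upstream moved less as a list. In tumor neutrophils 7 of 30 were called higher and the median was -0.04, with Ikbke, an IkappaB kinase relative (log2 fold change 6.12, edgeR adjusted p = 0.00014), Traf1, an adaptor of TNF receptors (5.37, edgeR adjusted p = 0.00617), and Irak2, a kinase of Toll-like receptor and IL-1 signalling (3.89, edgeR adjusted p = 0.000889), at the top. In tumor monocytes 4 were called higher and 1 lower among 31, with Traf1 at 6.17, Irak2 at 3.14 and Malt1, a protease of the antigen receptor branch, at 3.04. Mean blood levels in tumor-bearing mice were 0.0395 RPKM for Ikbke in neutrophils, and 0.176 and 0.114 for Traf1 in neutrophils and monocytes. The size of the Ikbke and Traf1 fold changes therefore rests on blood levels near 0. Receptors called higher numbered 5 of 11 in neutrophils, led by Tnfrsf1b (2.44), Nod2 (2.2) and Tlr2 (1.91), and 6 of 12 in monocytes, led by Il1r1 (4.76), Tlr2 (3.48) and Nod2 (2.33). Known target genes were called higher in 21 of 30 in neutrophils (median log2 fold change 3.72) and 23 of 30 in monocytes (median 3.42). Il1a, the cytokine gene, led this list in both, at 7.4 in neutrophils and 11.57 in monocytes (edgeR adjusted p = 0.00108 and 2.18e-06). Its group mean was 52.2 RPKM in tumor neutrophils and 118 in tumor monocytes. In blood of tumor-bearing mice it was 0.33 in neutrophils and 0.0469 in monocytes, so the size of both fold changes rests on blood levels near 0.

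The presence of a tumor elsewhere was asked of blood cells, tumor-bearing against healthy. In blood neutrophils 0 members were called, against 4.01% of 13360 genes, with 1 member at an unadjusted p under 0.05 and 1 called by DESeq2. That member was Tnfaip3, at 2.17, 2.39, 1.39 and 9.09 RPKM in healthy mice and 0.372, 0.483, 1.43 and 1.8 in tumor-bearing mice. Healthy replicate 4 was far above the other 7 libraries, and the groups overlapped. The log2 fold change was -1.84 ± 0.7 (edgeR adjusted p = 0.157; DESeq2 adjusted p = 0.0399), and -0.81 without healthy replicate 4 (edgeR adjusted p = 0.444). Relb had a log2 fold change of -1.32 ± 0.61 (edgeR adjusted p = 0.239) and Nfkbia one of -0.93 ± 0.42 (edgeR adjusted p = 0.233). The remaining 7 lay between -0.54 and 0.74.

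In blood monocytes 0 members were called as well, against 0.209% of 15313 genes, with 1 at an unadjusted p under 0.05. Bcl3, with 3.08, 2.45, 3.71 and 3.19 RPKM in healthy mice and 9.08, 5.62, 3.63 and 3.92 in tumor-bearing mice, had the largest difference, at 0.92 ± 0.3 (edgeR adjusted p = 0.327). Its RPKM ranges overlapped, while on normalized CPM they did not. On normalized CPM the groups of 2 members, Bcl3 and Nfkb1, did not overlap, against 7.32% of all genes (3.25% higher and 4.07% lower in tumor-bearing mice). On RPKM every member overlapped, while 7.36% of all genes did not. Nfkb1 differed by -0.3 ± 0.16 (edgeR adjusted p = 0.578). The other 8 members lay between -0.34 and 0.28. Of the target list, 4 of 26 were called in blood neutrophils, with Lcn2 (3.14) and Nos2 (5.87) higher and Icam1 (-1.99) lower. In blood monocytes 1 of 24 was called, which was Lcn2 (4.94, edgeR adjusted p = 0.0374). Nos2 had a mean of 0.0258 RPKM in healthy blood neutrophils, so the size of its fold change rests on levels near 0. Lcn2 had a mean of 364 RPKM in blood neutrophils and 17.4 in blood monocytes of tumor-bearing mice. The 8 neutrophil markers summed to 95.3 to 265 RPKM in blood monocytes of tumor-bearing mice and 33.3 to 128 in those of healthy mice. The part of neutrophil RNA in the Lcn2 level of monocytes was not tested.

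Healthy blood neutrophils and monocytes, neither digested, were compared as well, and members were called at a smaller share than all genes. Nfkbiz was 729, 783, 1870 and 2640 normalized CPM in neutrophils and 87.4, 114, 117 and 226 in monocytes, a log2 fold change of 3.47 ± 0.49 (edgeR adjusted p = 0.000339). Nfkbia was 48.4, 73.1, 49.6 and 153 in neutrophils and 17.1, 27.1, 28.2 and 22 in monocytes, a log2 fold change of 1.78 ± 0.39 (edgeR adjusted p = 0.00412). Neither pair of groups overlapped, as was the case for 5 members and 50.6% of all genes on normalized CPM. These 2 of 10 were called, against 37.1% of 15033 genes (16.7% called higher), and without neutrophil replicate 4, the highest library for both, Nfkbia stood at 1.29 and 1 was called (34.1% of all genes). With the adjusted p alone 5 passed, against 50.8%: Bcl3 at 1.36 ± 0.24 and Birc3 at 0.8 ± 0.25 were higher in neutrophils (edgeR adjusted p = 0.00131 and 0.0225) and Nfkb1 at -0.76 ± 0.18 was lower (edgeR adjusted p = 0.00535).

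Tumor epithelial cells were compared with healthy colon epithelium, in which Cre activity and loss of Apc are aimed at the cells measured. No member was called, against 15.4% of 16085 genes, but Bcl3 and Nfkbiz passed the adjusted p, both higher in tumors, against 22.6% of all genes (10.6% higher). Bcl3 was 10.1, 7.57, 7.72 and 15.5 normalized CPM in healthy and 23.8, 18.9, 38.3 and 31.5 in tumor epithelium. The groups did not overlap, and the log2 fold change of 1.47 ± 0.32 was just under the fold threshold (edgeR adjusted p = 0.00747). Nfkbiz was 82.4, 58.4, 85.9 and 111 in healthy and 143, 149, 202 and 121 in tumor epithelium, also apart, with a log2 fold change of 0.87 ± 0.23 (edgeR adjusted p = 0.0215). Tumor replicate 3 was the highest library of both genes.

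For the other members the scale decided what was seen. On RPKM the groups of 5 members did not overlap (Nfkb2, Nfkbia, Nfkbie, Nfkbiz and Bcl3), and on normalized CPM those of 2. Over all genes tested, groups did not overlap for 23% on RPKM, of which nearly all were higher in tumors (20.6% higher, 2.44% lower), and for 27.8% on normalized CPM (14.1% higher, 13.8% lower). For Nfkb2 and Nfkbie the library that overlapped the tumors on normalized CPM was healthy replicate 4, where mitochondrial genes took most counts, and for Nfkbia it was healthy replicate 1 (34.7, against 28.5, 40, 28.6 and 23.2 in tumors). In healthy replicate 4 Nfkb2 was 0.623 RPKM, the lowest of the 8, but 24.3 normalized CPM, the highest of the 8 (8.96, 4.75 and 6.43 in healthy replicates 1 to 3, and 14.6, 13.1, 16.6 and 18.6 in tumors). Without that library, with 16.4% of all genes called, Bcl3 was called at 1.76 (edgeR adjusted p = 0.00321), and Nfkb2 at 1.25, Nfkbie at 1.19 and Nfkbiz at 1.05 passed the adjusted p (edgeR adjusted p = 0.0146, 0.0418 and 0.0103). Tnfaip3 spread over 132, 11.7, 25.3 and 82.9 normalized CPM in healthy and 65, 81.7, 183 and 135 in tumor epithelium, and did not pass (log2 fold change 0.88 ± 0.64, edgeR adjusted p = 0.371). Birc3 and Nfkb1 differed by -0.06 ± 0.23 and 0.21 ± 0.24 (edgeR adjusted p = 0.884 and 0.576).

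Beyond the members, Rela was the gene called among the other subunits and inhibitors of tumor epithelium, at 1.58 ± 0.38 on the log2 scale (edgeR adjusted p = 0.0122). Its mean RPKM was 1.77 ± 0.666 (SD, n = 4) in healthy and 9.77 ± 1.83 (SD, n = 4) in tumor epithelium. Target genes called numbered 10 of 25, all higher, with Lcn2 at 4.95 and the neutrophil chemokine genes Cxcl2 at 3.58 and Cxcl1 at 3.55. Receptors called numbered 4 of 10, all lower, with Tnfrsf11a at -2.91 and Il1r1 at -2.11. The digestion-related genes had 0 of 15 called and summed to 568 to 1130 RPKM in tumor and 90.6 to 631 in healthy epithelium.

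In the libraries labelled stromal, 0 members were called between tumor and healthy colon, against 8.4% of 19081 genes, with 1 at an unadjusted p under 0.05. The groups of every member overlapped, while those of 18.9% of all genes on normalized CPM did not. The tumor libraries fell apart in pairs. Rel was 193, 114, 227 and 287 normalized CPM in healthy stroma and 200, 130, 362 and 752 in tumor stroma, where replicates 3 and 4 were above all healthy libraries and replicates 1 and 2 were not. Its log2 fold change was 0.81 ± 0.54 (edgeR adjusted p = 0.391). Nfkb1 had 143, 156, 278 and 175 in healthy and 93.3, 109, 256 and 370 in tumor stroma, so that tumor replicates 1 and 2 were the lowest of all 8. For Birc3 the values were 79.2, 68.5, 77.5 and 170 in healthy and 41.8, 30.3, 152 and 199 in tumor stroma, with the same pair lowest. Replicates 1 and 2 were those with few endothelial markers, and in replicates 3 and 4 neutrophil markers summed to 1570 and 532 RPKM against 42 and 8.68. The part of these cells in the members' levels was not tested. Leaving out tumor replicates 1 and 2, a choice made after seeing the data, gave 0 called members, with Rel at 1.45 (edgeR adjusted p = 0.0852) and Tnfaip3 at 1.06 (edgeR adjusted p = 0.0942).

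**Figure D3:**
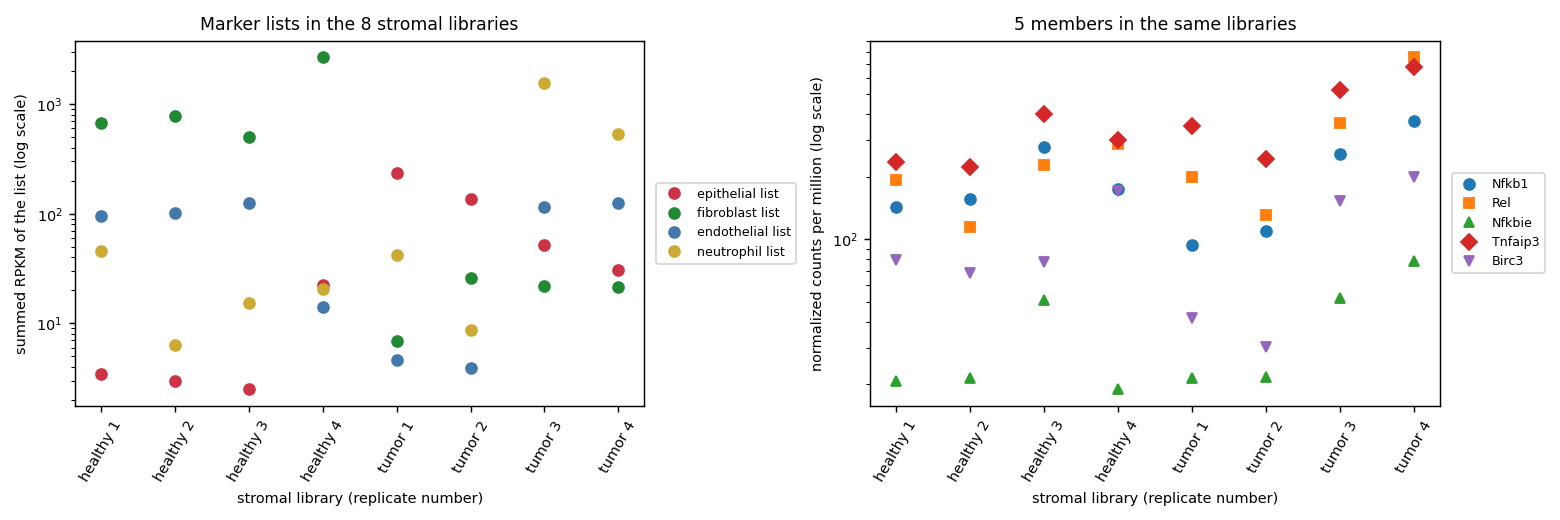
The 8 stromal libraries of healthy colon and tumor, with the summed RPKM of 4 marker lists on the left and the normalized CPM of 5 members on the right (both log scales, each point 1 library). For Nfkb1 and Birc3 tumor replicates 1 and 2 are the lowest points, and tumor replicates 3 and 4 have the highest Rel.

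The target list had 5 of 32 called in tumor stroma, all higher, with Lcn2 at 4.91, Tnf at 4.06 and Ccl3 at 3.98. No member passed the test of whether the tumor difference was of another size in epithelium than in stroma, against 15.1% of 20901 genes, and 0 had an unadjusted p under 0.05. Nfkbia differed most, by 1.19 ± 0.63 (edgeR adjusted p = 0.236).

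Within healthy colon, epithelium was compared with stroma. All 10 log2 fold changes were below 0, with a median of -1.42 against -0.14 over all genes. Called lower were 4 members, against 30.9% of 18468 genes (19.4% called lower): Nfkbie at -2 ± 0.52 (edgeR adjusted p = 0.0135), Nfkbia at -1.87 ± 0.49 (edgeR adjusted p = 0.0135), Nfkbiz at -1.63 ± 0.26 (edgeR adjusted p = 0.00121) and Birc3 at -1.6 ± 0.3 (edgeR adjusted p = 0.00253). Nfkbiz was 105, 72.4, 107 and 137 normalized CPM in epithelium and 298, 308, 265 and 433 in stroma, 2 ranges that lay well apart. With the adjusted p alone 6 passed, against 38.1%. RPKM ranges did not overlap for 10 members and 41.5% of all genes (37.4% lower and 4.09% higher in epithelium), and normalized CPM ranges for 5 members and 40.5% of all genes (23.7% lower, 16.9% higher). The digestion-related genes moved with this comparison, with 6 of 15 called lower in epithelium, and without stromal replicate 4, which had the highest of their sums at 3080 RPKM, 1 member was called (33.5% of all genes).

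**Figure D4:**
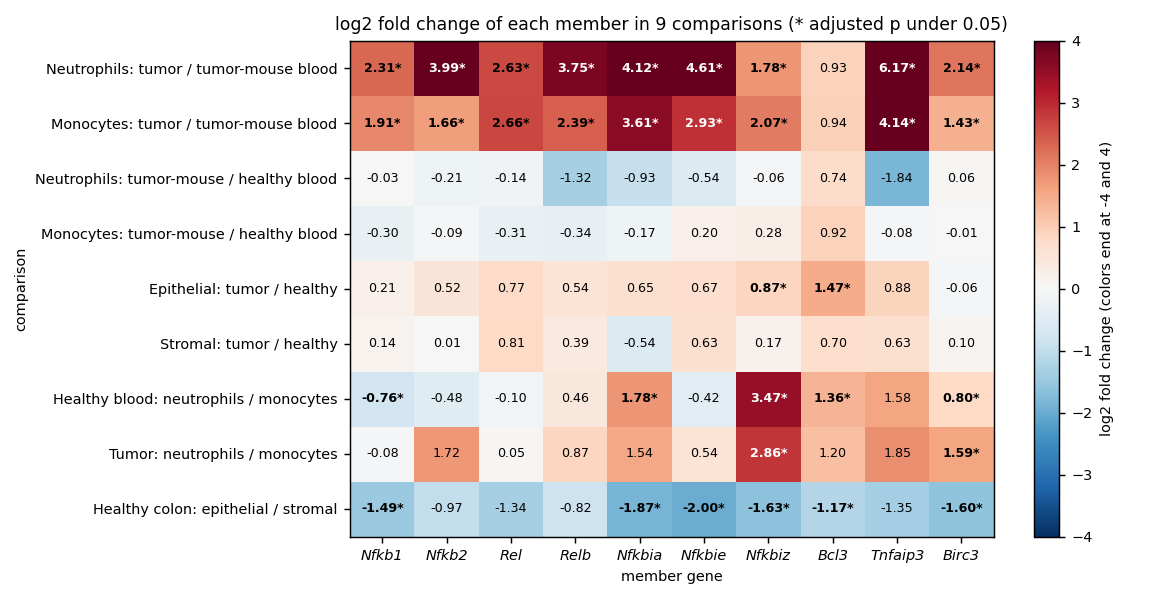
Log2 fold change of each of the 10 members (across) in the 9 pairwise comparisons (down), coloured by size and direction, with an asterisk where the edgeR adjusted p was under 0.05. Between tumor-bearing and healthy mice only Nfkbiz and Bcl3 in epithelium carry one.

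Over the 40 libraries all pairs of members were positively correlated. Pearson correlations of log2(RPKM + 1) exceeded 0.5 in 43 of the 45 pairs of members, with a median of 0.71 and a range of 0.41 to 0.92. The libraries share cell types and depth, so these values describe the groups as much as the genes. The share of such pairs among all genes was not computed, so the count is not read as a trait of the members. Among 8231 other genes, those with the highest mean correlation to the 10 members were Tnip1 (0.81), Tiparp (0.81), Spag9 (0.81), Bcl2l11 (0.80) and Sde2 (0.79).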

How the data were processed

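Cells were sorted as neutrophils (CD45+ CD11b+ MHCII- Ly6G+ Ly6C-low), monocytes (CD45+ CD11b+ MHCII- Ly6G- Ly6C-high), epithelial cells (EpCAM+ CD45-) and stromal cells (EpCAM- CD45-), and amplified RNA was sequenced. The submitters' processing notes name bcl2fastq, Bowtie2, limma and mm10, without versions. The authors deposited estimated counts per gene, of which 99.6% of values above 0 were not whole (tolerance 1e-06), and RPKM, which equalled the deposited counts times 1 constant per gene and 1 per library. RPKM is used for levels only. It does not correct for the share of mitochondrial counts as TMM does. Counts were rounded and tested with edgeR 4.0.16 (R 4.3.3; TMM, filterByExpr, robust quasi-likelihood fit of the libraries compared, Benjamini-Hochberg adjustment over all genes tested), checked on simulated data. This replaced the study's limma, which was run as an alternative (limma 3.58.1, voom), as was DESeq2 1.42.0. Correlations used a pseudocount of 1 and genes with a mean RPKM of at least 1. Named pathway genes were the 3 of each list with the largest change among those called, at a mean log2 CPM of at least 3. Libraries held 10717873 to 38002939 counts; low members such as Relb are the least precise. The second of 2 tumor stromal libraries labelled replicate 3 was numbered 4. Replicate numbers were not taken as pairs. Figures were drawn with matplotlib 3.10.9. Members and lists were chosen with earlier results of these data known.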

Additional observations from a re-analysis of the deposited data

Results flagged for a closer look

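In 12 of 100 sets of 4 libraries (10 members in 10 groups), 1 library stood apart from the other 3 by Dixon's criterion. For independent normal values this happens in about 1 set in 20. The sets are RPKM of correlated members in the same libraries, so the 12 are not read as an excess over chance. For Tnfaip3 these were healthy blood neutrophil replicate 4 (9.09 RPKM, next 2.39), tumor neutrophil replicate 2 (118 RPKM, next 46.2) and healthy epithelial replicate 1 (5.68 RPKM, next 1.54). For Nfkb1 they were blood neutrophil replicate 3 of tumor-bearing mice (1.28 RPKM, next 2.36) and healthy stromal replicate 3 (7.7 RPKM, next 4.38), and the latter library also stood apart for Nfkbie (6.99 RPKM, next 2.81). Nfkbie in tumor monocyte replicate 3 was low at 16.6 RPKM (next 27.1), and Birc3 in tumor neutrophil replicate 1 was low at 16.6 RPKM (next 31). Nfkbiz in tumor epithelial replicate 3 was high at 23.9 RPKM (next 11.4). Bcl3 was low in healthy epithelial replicate 4 at 0.566 RPKM (next 1.35) and in tumor stromal replicate 2 at 4.12 RPKM (next 7.87), and Relb was low in the latter library too, at 0.954 RPKM (next 1.58).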

How the results depend on the processing

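With 4 libraries a group and 2 tumor neutrophil and 2 tumor stromal libraries that stood apart, single libraries set several calls. Leaving out 1 library at a time, the number of members called ranged over 8 to 9 for tumor against blood neutrophils, 7 to 8 for monocytes, 0 to 0 for both blood comparisons and for stroma, 0 to 1 for epithelium, 1 to 3 for healthy blood neutrophils against monocytes, 1 to 5 for tumor neutrophils against tumor monocytes, 1 to 6 for healthy epithelium against stroma, 0 to 1 for the neutrophil-monocyte interaction and 0 to 0 for the epithelium-stroma interaction. In epithelium Bcl3 was the member called, without healthy replicate 4 or without tumor replicate 1 or 2. In the same fits the number called over all genes was 1509 to 1848 for tumor against blood monocytes (15782 to 16280 tested). It was 2196 to 2801 for epithelium (16454 to 16996 tested) and 5377 to 6281 for healthy blood neutrophils against monocytes (15498 to 16058 tested). For healthy epithelium against stroma it was 5249 to 7014 (18803 to 20284 tested). For the epithelium-stroma interaction it was 2530 to 3281 (21266 to 22054 tested). The ranges of the remaining comparisons are given below.

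Among other settings, DESeq2 called 1 member in blood neutrophils (868 of 13360 genes) and 4 in tumor neutrophils against monocytes (2398 of 15003). It called 1 in the interaction of neutrophils and monocytes (2015 of 17465). In epithelium 2 were called with no fold threshold (22.6% of all genes). With limma-voom 1 was called (2821 of 16085 genes), as with no filter (2664 of 31844) and at least 10 counts in every library (1246 of 10694). In healthy neutrophils against monocytes 5 were called with no fold threshold (50.8% of all genes). In tumor neutrophils against monocytes 1 was called with RLE size factors (1065 of 15003 genes) and with limma-voom (1286 of 15003). It was also 1 with no filter (907 of 31692) and with the replicate number as a block (621 of 15003). The interaction had 1 with at least 10 counts (486 of 6453) and with all 40 libraries (2148 of 22122). Same-numbered libraries had correlated deviations of -0.23 to 0.25, and no comparison had every pair above 0.1; in blood monocytes all 4 were positive (0.04 to 0.25) and 3 were above 0.1, while other pairs reached 0.15. As a block, the replicate number lowered the calls over all genes from 2229 to 1407 in tumor against blood neutrophils and from 1781 to 1376 in monocytes. With it 8 members were called in tumor against blood neutrophils, where Nfkbiz no longer passed, and 5 in healthy epithelium against stroma (5335 of 18468 genes). The member count of every other comparison was unchanged except tumor neutrophils against monocytes (621 of all genes in place of 1117).

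The number of all genes called, against which member counts are read, moved by over 1.5 times in some fits. With all 40 libraries it was 5995 for tumor against blood neutrophils, 2803 for monocytes, 4176 (in place of 1117) for tumor neutrophils against monocytes and 2148 (in place of 696) for their interaction. DESeq2 gave 868 in place of 536 in blood neutrophils, 263 in place of 32 in blood monocytes, 2713 in place of 1602 in stroma, 2398 for tumor neutrophils against monocytes and 2015 for the interaction. A minimum of 10 counts in every library, which tests fewer genes, gave 1270 in tumor against blood neutrophils, 71 in blood monocytes, 1246 in place of 2476 in epithelium, 947 in stroma, 2760 in place of 5576 in healthy neutrophils against monocytes, 2245 in place of 5702 in healthy epithelium against stroma and 1528 in place of 3165 in the epithelium-stroma interaction. In blood monocytes limma-voom gave 17, all 40 libraries 18 and the block 14; the block gave 353 in blood neutrophils and 398 in the neutrophil-monocyte interaction. With 1 library left out the number ranged over 1638 to 3624 in tumor against blood neutrophils (highest without tumor replicate 2), 259 to 604 in blood neutrophils, 4 to 44 in blood monocytes, 827 to 1761 in stroma, 518 to 1731 in tumor neutrophils against monocytes (highest without tumor neutrophil replicate 1) and 347 to 1390 in the neutrophil-monocyte interaction.

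Over members and settings, 840 values kept direction and side of the threshold, 21 passed newly, 9 no longer passed and 37 turned sign; with 1 library left out these were 925, 16, 24 and 75. Sign turns concerned members that did not pass in either fit. In blood neutrophils Nfkbiz was 0.027 with limma-voom and 0.039 with the block. In blood monocytes Birc3 was 0.0074 (RLE), 0.0073 (DESeq2), 0.0099 (at least 10 counts), 0.00088 (without mitochondrial genes) and 0.01 (block). In stroma Birc3 was -0.21 and -0.26 and Nfkb1 -0.032 and -0.28 (limma-voom, block), and Nfkb2 was -0.033 (limma-voom), -0.013 (no filter), -0.046 (at least 10 counts), -0.044 (all 40 libraries), -0.00074 (without mitochondrial genes) and -0.10 (block). In tumor neutrophils against monocytes Nfkb1 was 0.19 with the number in the library title as a block, and Rel was -0.17 (limma-voom), -0.11 (no filter), -0.21 (at least 10 counts), -0.12 (all 40 libraries) and -0.15 (block). In the neutrophil-monocyte interaction Bcl3 was 0.074 (at least 10 counts) and 0.056 (block), and Rel 0.0037 (RLE, DESeq2). In the epithelium-stroma interaction Birc3 was 0.16 (limma-voom) and 0.024 (block), Rel 0.67 (limma-voom), 0.078 (no filter), 0.015 (at least 10 counts), 0.013 (all 40 libraries) and 0.22 (block), and without tumor stromal replicates 1 and 2 Nfkbie was -0.51, Nfkb1 -0.51 and Tnfaip3 -0.15. The cause was not tested.

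With 1 library left out, log2 values that turned sign ranged as follows. In blood neutrophils the range was -0.035 to 0.31 for Birc3, -0.31 to 0.38 for Nfkbiz, -0.11 to 0.13 for Nfkb1, -0.42 to 0.051 for Nfkb2 and -0.25 to 0.034 for Rel. In blood monocytes it was -0.11 to 0.13 for Birc3, -0.15 to 0.50 for Nfkbie, -0.50 to 0.34 for Tnfaip3 and -0.34 to 0.15 for Nfkb2. In epithelium it was -0.17 to 0.057 for Birc3, and in stroma -0.41 to 0.50 for Birc3, -0.014 to 0.38 for Nfkbiz, -0.30 to 0.39 for Nfkb1 and -0.16 to 0.20 for Nfkb2. Rel ranged from -0.24 to 0.0079 in healthy neutrophils against monocytes and from -0.39 to 0.25 in tumor neutrophils against monocytes. In the neutrophil-monocyte interaction the range was -0.40 to 0.37 for Bcl3, -0.33 to 0.70 for Nfkbia and -0.61 to 0.13 for Rel. In the epithelium-stroma interaction it was -0.55 to 0.35 for Birc3, -0.36 to 0.50 for Nfkbie, -0.10 to 0.97 for Tnfaip3, -0.17 to 0.51 for Nfkb1, -0.34 to 0.61 for Rel and -0.10 to 0.53 for Relb.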
